A study of Mus musculus with 4 samples.

Results

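The fibroblast growth factor (FGF) genes described here are the numbered *Fgf* genes, the receptor genes *Fgfr1* to *Fgfr4* and *Fgfrl1*, the inhibitors *Spry1* to *Spry4* and *Spred1* to *Spred3*, and the targets *Dusp6*, *Etv4* and *Etv5*. They are the genes whose symbols match these names, which are 37 of the 23284 genes counted. Their mRNAs were followed in Osr1+ cells, which were isolated by FACS from mouse limbs at E13.5. The knock-in allele GCE disrupts *Osr1*, a zinc finger transcription factor gene, with a cassette coding for GFP and an inducible Cre, so GFP marked the cells. Control cells were heterozygous (Osr1 GCE/+, 2 samples) and mutant cells homozygous (Osr1 GCE/GCE, 2 samples), both in C57BL/6J, and the controls thus had 1 intact *Osr1* copy. The comparison asks which genes of the FGF pathway differ in these connective tissue cells when Osr1 is lost. The study's methods give 2 embryos of each genotype, so the 2 samples of a group are biological replicates.

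Secreted FGFs bind receptor tyrosine kinases on the cell surface together with heparan sulphate chains. The activated receptor signals through RAS and the kinase ERK, which induces *Dusp6*, *Etv4*, *Etv5*, *Spry* and *Spred* genes, and several of their products dampen the same pathway. In the limb bud, *Fgf10* from the mesenchyme and *Fgf8* from the apical ectodermal ridge sustain outgrowth, and FGF signals later act in cartilage, tendon and muscle.

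The 4 members with the lowest unadjusted p in the genotype comparison were *Fgfr2*, *Fgf18*, *Fgf7* and *Fgf10*, and the sequence just before their start sites is shown to place them in the genome. Each line holds the 250 bases before the outermost RefSeq start (GRCm38.p6), 5′ to 3′ on the gene's strand, with CG dinucleotides in capitals.
*Fgfr2* (chr7:130266809-130267058, minus strand): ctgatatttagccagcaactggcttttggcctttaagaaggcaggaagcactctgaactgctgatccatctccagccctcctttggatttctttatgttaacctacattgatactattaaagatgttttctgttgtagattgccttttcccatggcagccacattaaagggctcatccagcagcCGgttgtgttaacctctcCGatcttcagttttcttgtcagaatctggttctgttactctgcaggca
*Fgf18* (chr11:33147401-33147650, minus strand): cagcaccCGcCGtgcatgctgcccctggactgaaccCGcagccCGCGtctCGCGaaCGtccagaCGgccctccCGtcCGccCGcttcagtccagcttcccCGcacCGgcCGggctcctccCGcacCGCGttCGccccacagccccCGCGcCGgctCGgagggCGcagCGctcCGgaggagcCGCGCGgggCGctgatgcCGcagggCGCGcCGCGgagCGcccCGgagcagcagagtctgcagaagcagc
*Fgf7* (chr2:126034408-126034657, plus strand): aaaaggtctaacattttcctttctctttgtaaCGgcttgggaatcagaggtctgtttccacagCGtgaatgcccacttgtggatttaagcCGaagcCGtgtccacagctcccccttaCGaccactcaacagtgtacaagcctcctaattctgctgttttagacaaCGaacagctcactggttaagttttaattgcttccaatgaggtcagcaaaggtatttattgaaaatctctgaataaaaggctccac
*Fgf10* (chr13:118714449-118714698, plus strand): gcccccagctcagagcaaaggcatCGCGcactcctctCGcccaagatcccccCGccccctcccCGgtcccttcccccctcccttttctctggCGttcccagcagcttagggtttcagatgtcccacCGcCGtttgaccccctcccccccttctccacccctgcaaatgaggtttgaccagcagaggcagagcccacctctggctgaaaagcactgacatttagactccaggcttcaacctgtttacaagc

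The 4 windows differed widely in CG content. The *Fgf18* window had 37 CG dinucleotides, and only 2.2% of 32851 mouse promoter windows of this length had as many. The *Fgf10* window had 8, the *Fgf7* window 6 and the *Fgfr2* window 2, against a median of 6 over all windows. The RefSeq start of *Fgfr2* lay 545 bases from the nearest GENCODE start, so this window is not the only candidate promoter of the gene. The letters CCGGAAGT, a core bound by ETS factors such as the *Etv4* and *Etv5* products, were searched on both strands of each window. They were present in 1 of the 27 members with a window, *Fgfrl1*, and in 2.88% of all windows. A match is a description of the sequence and not a binding site.

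The counts of a sample summed to between 52121596 and 61402140, so that 3 counts, taken as the floor, amounted to 0.0489 to 0.0576 CPM, a count scaled by the total of its library after TMM normalisation. This floor covers no error other than that of counting. *Osr1* had 81.9 and 79.1 CPM in GCE/+ samples and 11.9 and 13.9 CPM in GCE/GCE samples, which matches the labels (log2 fold change -2.64, SE 0.11, edgeR adjusted p = 5.94e-05, quasi-likelihood test, Benjamini-Hochberg). The 2 GCE/+ libraries differed from each other. By a chi-square per gene, GCE/+ replicate 1 was the library farthest from all others, at 30.8 from GCE/+ replicate 2 and 46.2 and 48.9 from the GCE/GCE libraries. GCE/+ replicate 2 was at 22.9 and 26.4 from the GCE/GCE libraries, near the 25.9 between those 2. Pearson's r of log2 counts, in contrast, was highest within GCE/+, at 0.9953, and ran from 0.9941 to 0.9949 for the other pairs, across genes, which are not independent replicates. Genes of limb mesenchyme were high, as *Prrx1* had 438 to 499 CPM and *Pdgfra* 833 to 977 CPM over the 4 samples.

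In Osr1+ cells, *Fgfr1*, Sprouty genes and *Dusp6* had the highest levels of the FGF genes. Levels of different genes were compared as CPM per kb of transcript. *Spry2*, which encodes an inhibitor of receptor signalling, was highest with 91.8 and 82.9 CPM per kb in the GCE/+ samples. *Spry1*, its close relative, had 89.8 and 71.6 CPM per kb, and *Fgfr1*, the main receptor gene of limb mesenchyme, had 71.8 and 76.4. The *Spry1* values overlapped the ranges of both other genes, while *Spry1* and *Fgfr1* were each below *Spry2* within both samples. *Dusp6*, which encodes a phosphatase that inactivates ERK, came next with 53.6 and 54.6 CPM per kb. *Spry4* followed with 32.5 and 31.4 CPM per kb. *Fgfrl1*, *Spred2* and *Etv5* had means of 24.4, 23.8 and 23.7 CPM per kb and overlapped each other. Among secreted ligands *Fgf18* was highest with 19.9 and 19.4 CPM per kb, and *Fgf7* and *Fgf10* had means of 10.6 and 7.45. *Fgf18* thus made up 42.2% and 41.5% of the summed per-length level of the 18 secreted ligands in GCE/+ cells, *Fgf7* 21.8% and 23.3%, and *Fgf10* 15.5% and 16.2%.

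**Figure D1:**
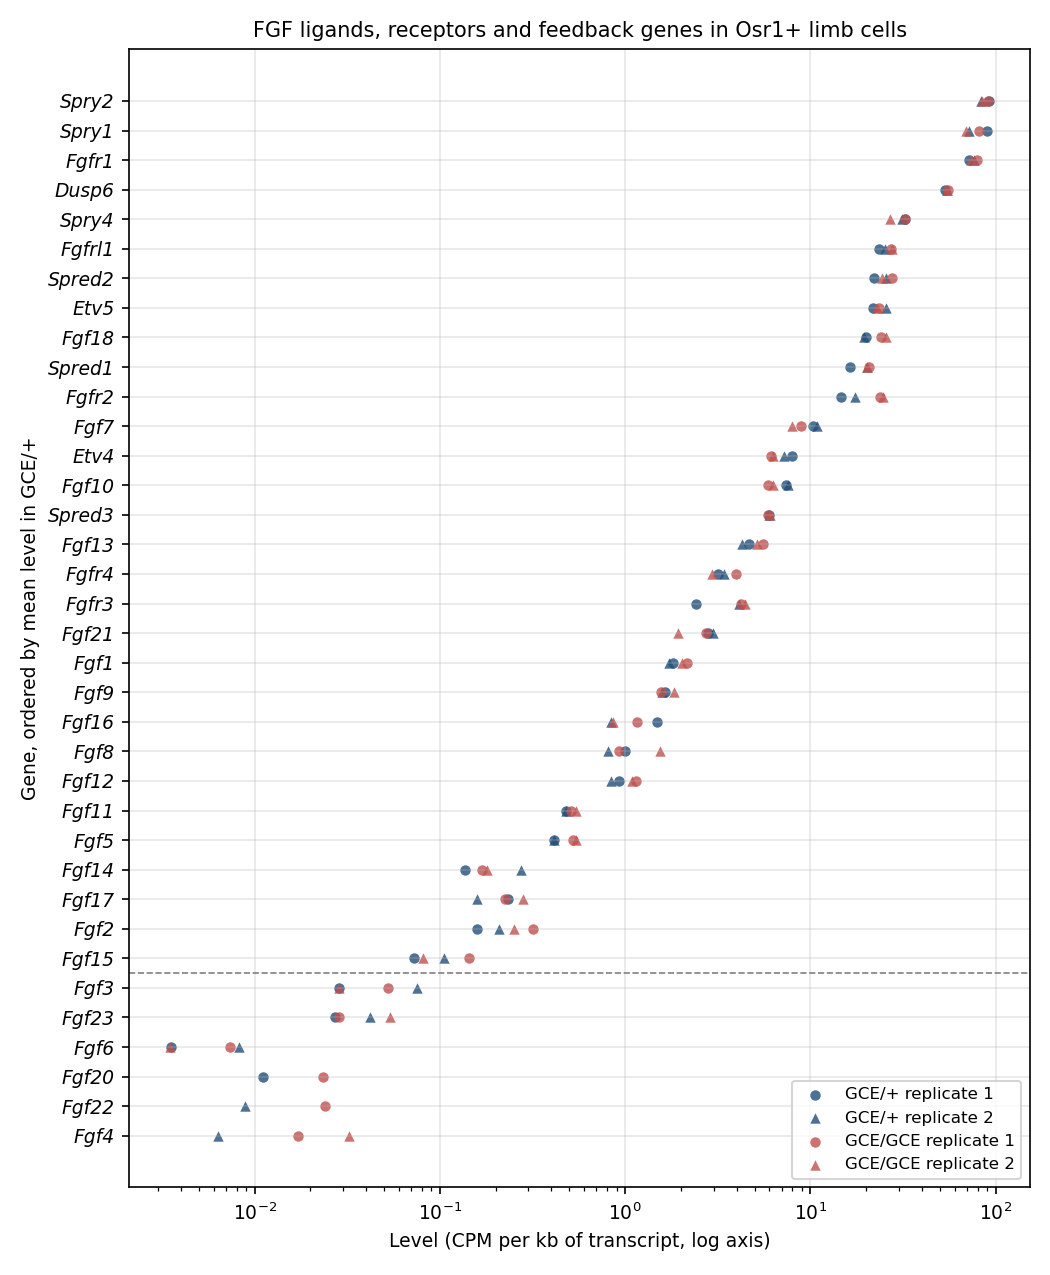
Level of the 36 genes with a transcript length in each of the 4 samples, in CPM per kb on a log axis, ordered by the mean of the 2 GCE/+ samples. Genes under the dashed line were under the filter on low counts, values of 0 are not drawn, and the levels run from below 0.01 for *Fgf4* to 91.8 for *Spry2*.

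Of the 37 members, 30 passed the filter on low counts and were tested. The 7 others were *Fgf3*, *Fgf4*, *Fgf6*, *Fgf20*, *Fgf22*, *Fgf23* and *Spry3*. *Spry3* had 0 counts in every sample, which allows up to 0.0576 CPM in the smallest library. *Fgf4*, a ridge ligand, had 0 and 1 counts in GCE/+ and 3 and 6 in GCE/GCE samples. *Fgf3* had 4 and 9 counts in GCE/+ and 7 and 4 in GCE/GCE samples. *Fgf6*, *Fgf20*, *Fgf22* and *Fgf23* had at most 6 counts in any sample. A difference in these genes was not detectable at this depth.

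At an adjusted p under 0.1, 1 of the 30 members tested differed between the genotypes, and this was *Fgfr2*, higher in GCE/GCE samples. Over all 15645 genes tested 1.82% passed this threshold in either direction, and 0.895% passed it as higher in GCE/GCE samples. A count of 1 among 30 is too small to be read as more or less than this background. DESeq2 also called *Fgfr2* alone among the members, against 3.25% of all genes. An unadjusted p under 0.05 was seen for 6 of the 30 members, against 10.5% of all genes tested. Both GCE/GCE samples lay above both GCE/+ samples for 11 members and below them for 4, against 19.2% and 19.1% of all genes tested. The median log2 fold change was 0.10 over the 30 members and 0.0033 over all genes tested. With 2 samples against 2, the smallest p of an exact permutation test is 0.333, and these calls therefore use a spread estimated over all genes.

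**Figure D2:**
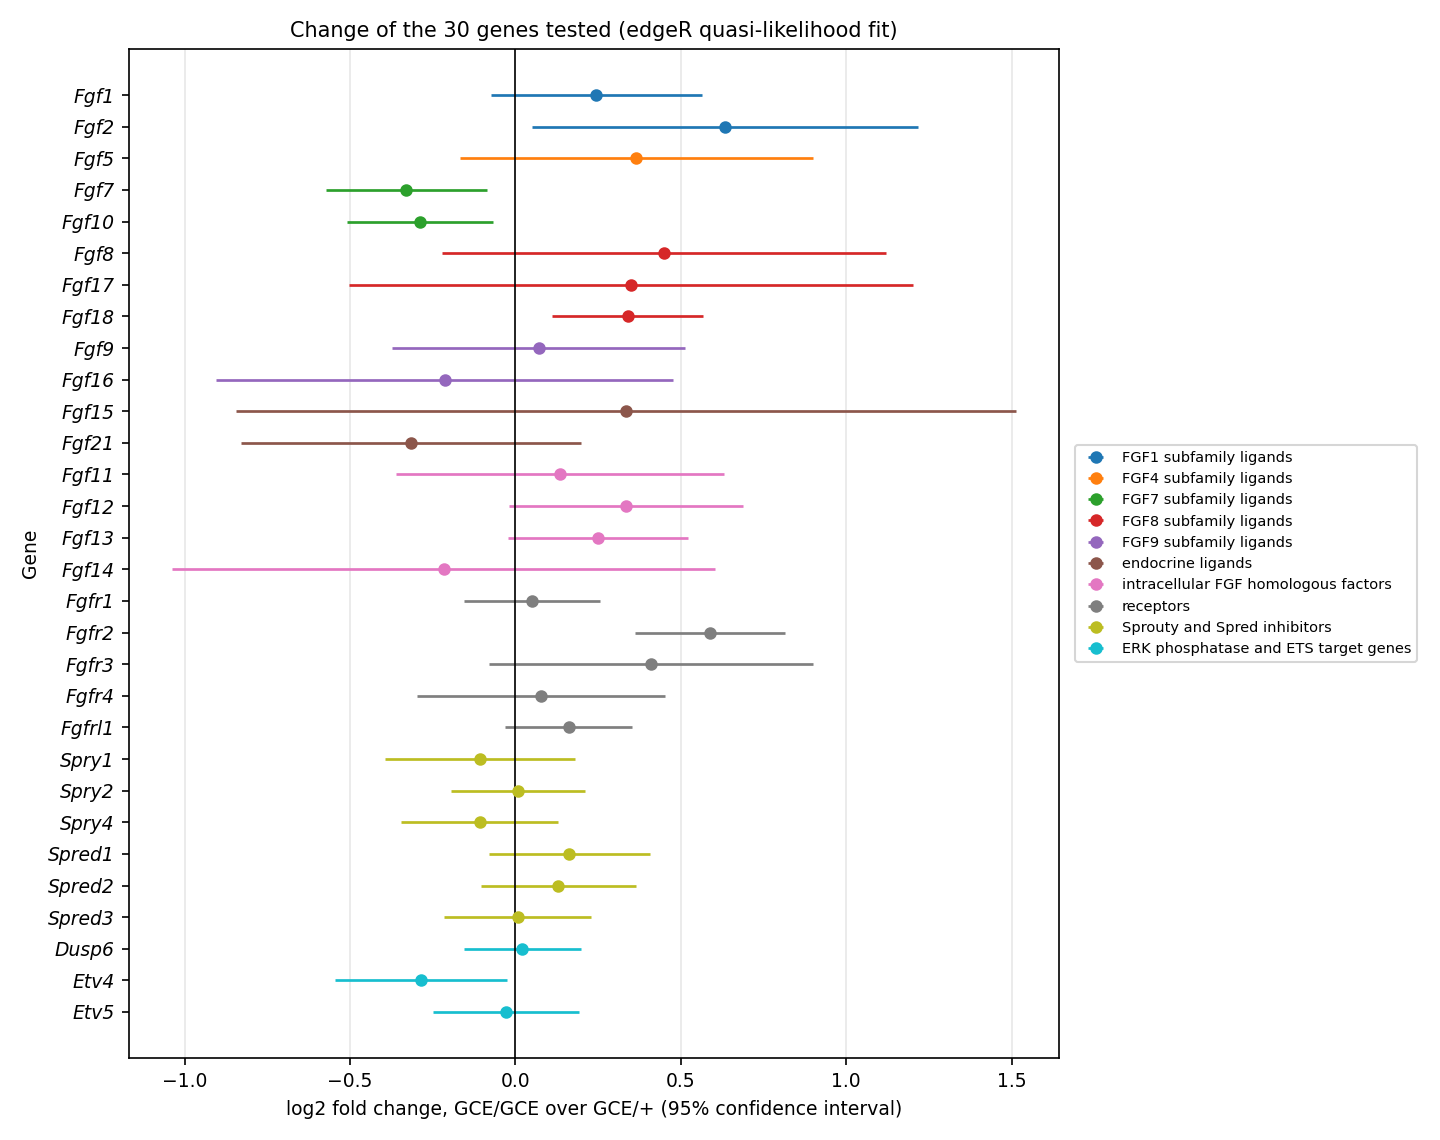
log2 fold change of the 30 genes tested, GCE/GCE over GCE/+, with 95% confidence intervals from the edgeR quasi-likelihood fit and colours for the role of each gene. The interval of *Fgfr2* runs from 0.36 to 0.82, those of *Fgf7* and *Fgf10* lie below 0, and those of the Sprouty and Spred genes all span 0.

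*Fgfr2* encodes a receptor whose epithelial splice form is bound by FGF7 and FGF10 and whose mesenchymal splice form is bound by ligands such as FGF18. Counts per gene do not separate these forms. In GENCODE its exons share 314 bases with *Ctbp2* on the same strand, and how the study's gene model treats that stretch was not tested. *Fgfr2* had 70.4 and 83.8 CPM in the GCE/+ samples and 114 and 118 CPM in the GCE/GCE samples. Both mutant samples were above both controls, and the mutants were closer to each other than the controls were. The log2 fold change was 0.59 (SE 0.10, 95% confidence interval 0.36 to 0.82, edgeR adjusted p = 0.0413), or 1.51-fold. Without GCE/+ replicate 1 it was 0.46 (edgeR adjusted p = 0.0622), and without GCE/+ replicate 2 it was 0.72 (edgeR adjusted p = 0.00819). Testing all genes with any count, with no filter, gave a log2 fold change of 0.58 and an adjusted p of 0.103 by the same edgeR test, just past the threshold.

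The other receptor genes did not pass the test. *Fgfr1* had 361 and 384 CPM in GCE/+ and 399.7 and 371 CPM in GCE/GCE samples, and the groups overlapped. Its log2 fold change was 0.05 (SE 0.09, 95% confidence interval -0.16 to 0.26, edgeR adjusted p = 0.949). *Fgfr3*, which encodes a receptor known to restrain growth of cartilage, had 10.7 and 18.1 CPM in GCE/+ and 18.6 and 19.5 CPM in GCE/GCE samples. GCE/+ replicate 1 was thus low, and replicate 2 was next to the mutants. The log2 fold change of *Fgfr3* was 0.41 (SE 0.21, edgeR adjusted p = 0.607), 0.84 without GCE/+ replicate 2 (edgeR adjusted p = 0.0231) and 0.071 without GCE/+ replicate 1 (edgeR adjusted p = 1.0). The size of this value thus rests on which GCE/+ library is used. *Fgfrl1*, which encodes a receptor without a kinase domain, had 60.8 and 65.7 CPM in GCE/+ and 70.5 and 71.0 CPM in GCE/GCE samples. The groups did not overlap, with a log2 fold change of 0.16 (SE 0.08, edgeR adjusted p = 0.606), or 0.10 without GCE/+ replicate 1 and 0.22 without GCE/+ replicate 2. *Fgfr4*, a receptor gene expressed in myogenic cells, had 9.79 to 13.2 CPM over the 4 samples, with overlapping groups.

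The makeup of the receptor transcripts was compared within each sample, where scaling between libraries plays no part. *Fgfr2* made up 15.9% and 17.2% of the summed per-length level of *Fgfr1* to *Fgfr4* in GCE/+ samples and 21.3% and 23.2% in GCE/GCE samples. *Fgfr1* made up 78.0% and 75.4% in GCE/+ and 71.3% and 69.9% in GCE/GCE samples. Per length, *Fgfr2* was at 0.204 and 0.228 of the *Fgfr1* level in GCE/+ samples and at 0.299 and 0.332 in GCE/GCE samples. *Fgfr1* thus remained the most abundant receptor mRNA in each sample. These shares repeat the *Fgfr2* contrast and were not tested apart from it.

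**Figure D3:**
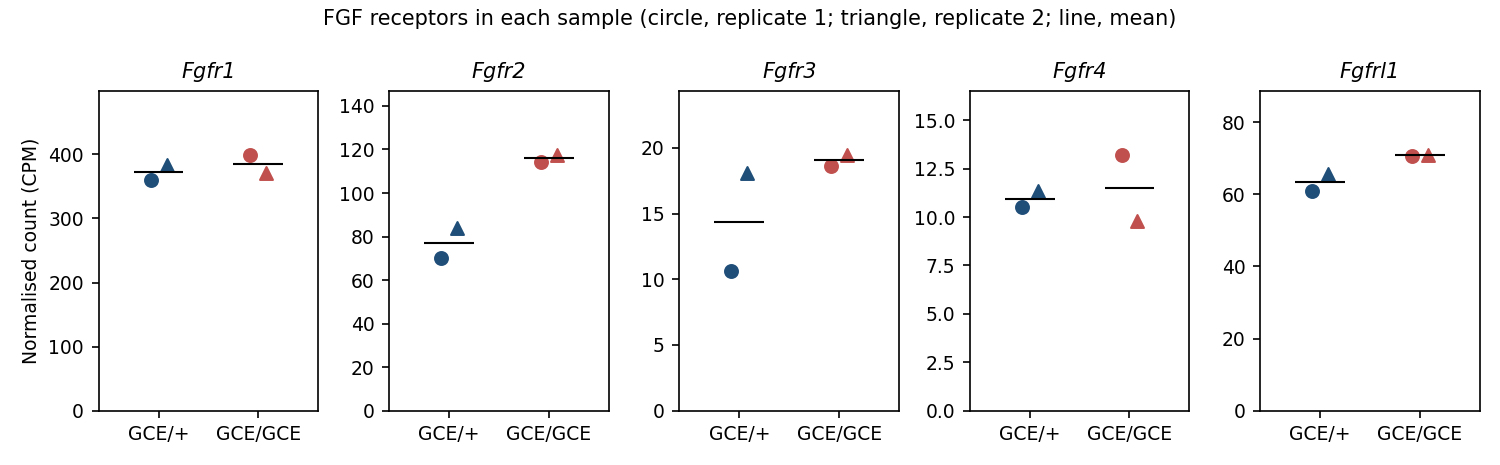
CPM of the 5 receptor genes in each sample, with a circle for replicate 1, a triangle for replicate 2 and a line at the mean of 2 samples, on linear axes that start at 0. Both GCE/GCE values of *Fgfr2*, 114 and 118, lie above the GCE/+ values of 70.4 and 83.8, while the GCE/+ samples of *Fgfr3* are spread from 10.7 to 18.1.

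Among the 18 secreted ligands, 12 were tested and none passed an adjusted p of 0.1 by edgeR or DESeq2, while 4 had an unadjusted p under 0.05, against 10.5% of all genes tested. The 3 ligands with the highest levels had intervals that excluded 0, 1 upward and 2 downward. *Fgf18*, a ligand made around growing cartilage and bone, had 21.6 and 21.1 CPM in GCE/+ and 26.1 and 28.0 CPM in GCE/GCE samples. The groups did not overlap, with a log2 fold change of 0.34 (SE 0.10, 95% confidence interval 0.11 to 0.57, edgeR adjusted p = 0.208). *Fgf7*, which encodes keratinocyte growth factor, had 27.5 and 29.1 CPM in GCE/+ and 23.9 and 21.2 CPM in GCE/GCE samples. Both mutant samples were lower, with a log2 fold change of -0.33 (SE 0.11, 95% confidence interval -0.57 to -0.09, edgeR adjusted p = 0.259). *Fgf10*, of the same subfamily, had 30.2 and 31.2 CPM in GCE/+ and 24.3 and 25.9 CPM in GCE/GCE samples. Again both mutant samples were lower, with a log2 fold change of -0.29 (SE 0.10, 95% confidence interval -0.51 to -0.07, edgeR adjusted p = 0.282).

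*Fgf7* and *Fgf10* are mesenchymal ligands of the same epithelial receptor form. Without division by length their CPM lay close to each other, while per length *Fgf10* was below *Fgf7* in each sample. Their CPM summed to 57.7 and 60.3 in GCE/+ and 48.2 and 47.1 in GCE/GCE samples. Per length, *Fgf18* was 2.72 and 2.57 times *Fgf10* in GCE/+ samples and 4.08 and 4.08 times in GCE/GCE samples. *Fgf10* over *Fgf7* was 0.713 and 0.695 in GCE/+ and 0.661 and 0.794 in GCE/GCE samples, which overlapped. *Fgf18* came to 49.3% and 52.1% of the summed per-length level of the secreted ligands in GCE/GCE samples, while that sum was 47.3 and 46.9 CPM per kb in GCE/+ and 48.8 and 49.4 in GCE/GCE samples.

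*Fgf2* had the largest log2 fold change among the 30 members tested, at a low level. It encodes a ligand without a signal peptide and had 0.953 and 1.24 CPM in GCE/+ and 1.89 and 1.5 CPM in GCE/GCE samples, from 58 to 110 counts. The groups did not overlap, with a log2 fold change of 0.64 (SE 0.26, 95% confidence interval 0.05 to 1.22, edgeR adjusted p = 0.413). Exons of *Fgf2* share 640 bases with *Nudt6* on the opposite strand. The library kit named in the labels does not mark strand, so reads of these 2 genes could not be told apart there. *Fgf1*, its relative, had 7.26 and 6.87 CPM in GCE/+ and 8.63 and 8.12 CPM in GCE/GCE samples (log2 fold change 0.25, SE 0.14, edgeR adjusted p = 0.656).

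The remaining ligands were low and none passed the test by edgeR or DESeq2. *Fgf8*, the ridge ligand, had 1.35 and 1.09 CPM in GCE/+ and 1.26 and 2.07 CPM in GCE/GCE samples, and GCE/GCE replicate 2 alone was high (log2 fold change 0.45, SE 0.29, edgeR adjusted p = 0.725). *Fgf5*, a ligand of the FGF4 subfamily, had 1.03 CPM in both GCE/+ samples and 1.31 and 1.36 CPM in GCE/GCE samples (log2 fold change 0.37, SE 0.23, edgeR adjusted p = 0.711). *Fgf9*, *Fgf16*, *Fgf17*, *Fgf15* and *Fgf21* had 0.131 to 2.91 CPM. Of these, *Fgf21*, an endocrine factor of metabolism, was lower in both mutant samples, with 2.68 and 2.83 CPM in GCE/+ and 2.60 and 1.83 CPM in GCE/GCE samples. Its log2 fold change of -0.31 (SE 0.22, edgeR adjusted p = 0.763) was within the error.

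The FGF homologous factors *Fgf11* to *Fgf14* are not secreted and modulate sodium channels inside the cell. None of the 4 passed the test by edgeR or DESeq2. *Fgf13* was highest, with 13.8 and 12.7 CPM in GCE/+ and 16.3 and 15.2 CPM in GCE/GCE samples (log2 fold change 0.25, SE 0.12, edgeR adjusted p = 0.54). *Fgf12* had 5.29 and 4.78 CPM in GCE/+ and 6.51 and 6.21 CPM in GCE/GCE samples (log2 fold change 0.34, SE 0.15, edgeR adjusted p = 0.512). Both genes were higher in both mutant samples. *Fgf11* and *Fgf14* stayed between 0.575 and 1.65 CPM.

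The log2 fold changes of the feedback inhibitors and ERK targets ran from -0.28 for *Etv4* to 0.16 for *Spred1*. Of these 10 genes 9 were tested, and none passed the test by edgeR or DESeq2. An unadjusted p under 0.05 by edgeR was seen for 1, *Etv4*, against 10.5% of all genes tested. Their median log2 fold change was 0.0077. *Dusp6* had 149.8 and 153 CPM in GCE/+ and 154 and 152 CPM in GCE/GCE samples. Its log2 fold change of 0.02 had a 95% confidence interval of -0.16 to 0.20 (SE 0.08, edgeR adjusted p = 0.974). *Spry2* had 192 and 173 CPM in GCE/+ and 189.5 and 177 CPM in GCE/GCE samples, a log2 fold change of 0.01 with an interval of -0.20 to 0.21 (edgeR adjusted p = 0.994). The direction of a value so near to 0 changed with upper quartile scaling, which gave -0.01. *Spry1* had 224 and 178 CPM in GCE/+ and 202 and 171 CPM in GCE/GCE samples (log2 fold change -0.11, SE 0.13, edgeR adjusted p = 0.898). *Spry4* had 155 and 149 CPM in GCE/+ and 155 and 127 CPM in GCE/GCE samples (log2 fold change -0.11, SE 0.10, edgeR adjusted p = 0.86). For each of these genes the groups overlapped.

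The Spred genes encode membrane-bound inhibitors of RAS and RAF activation. *Spred1* had 111 and 137 CPM in GCE/+ and 140.4 and 137 CPM in GCE/GCE samples. GCE/+ replicate 1 was low, and the log2 fold change was 0.16 (SE 0.11, edgeR adjusted p = 0.726). Without GCE/+ replicate 2 it was 0.32 (edgeR adjusted p = 0.0821), the only setting tried in which *Spred1* passed, and without GCE/+ replicate 1 it was 0.013 (edgeR adjusted p = 1.0). *Spred2* and *Spred3* had overlapping groups, from 63.0 to 78.7 and from 24.0 to 24.5 CPM. *Etv5* had 86.5 to 102 CPM with overlapping groups. *Etv4*, which like *Etv5* encodes an ETS factor induced by FGF signals, had 19.0 and 17.3 CPM in GCE/+ and 14.7 and 15.0 CPM in GCE/GCE samples. Both mutant samples were lower, with a log2 fold change of -0.28 (SE 0.11, 95% confidence interval -0.54 to -0.03, edgeR adjusted p = 0.408).

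**Figure D4:**
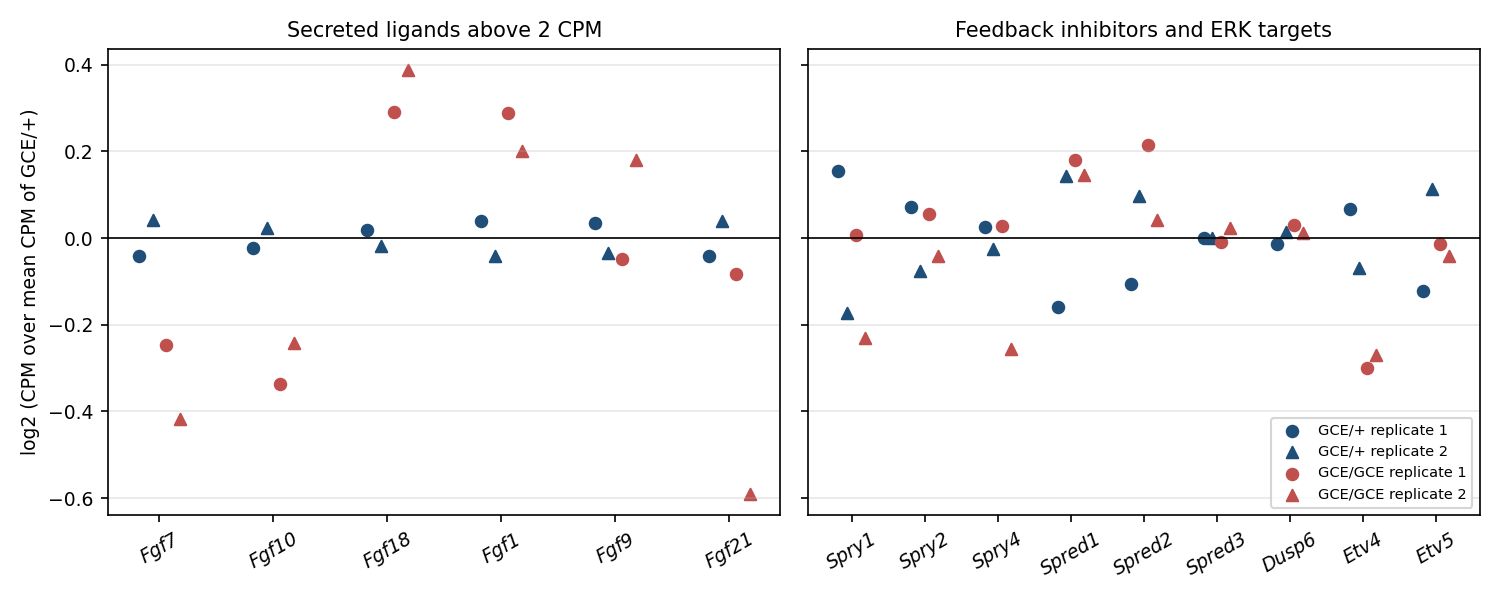
log2 of the CPM of each sample over the mean CPM of the 2 GCE/+ samples, for secreted ligands with a mean above 2 CPM in GCE/+ cells (left) and for inhibitors and ERK targets (right). Both GCE/GCE samples lie above 0 for *Fgf18* and below 0 for *Fgf7*, *Fgf10* and *Etv4*, while *Dusp6* and *Spred3* stay close to 0 in the 4 samples.

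Other genes of the pathway were read from 4 lists with 64 genes in all, and all 64 were tested. By edgeR 1 of the 64 passed, against 1.82% of all genes tested, and their median log2 fold change was 0.04. Among 21 genes for co-receptors and binding proteins this was *Sdc2*, which encodes a heparan sulphate proteoglycan of the cell surface. *Sdc2* had 104 and 94.5 CPM in GCE/+ and 144 and 149 CPM in GCE/GCE samples (log2 fold change 0.56, SE 0.08, edgeR adjusted p = 0.0324). DESeq2 called 4 of the 64 genes, against 3.25% of all genes, namely *Sdc2*, *Sdc4*, *Sulf1* and *Sulf2*. *Sdc4*, another syndecan gene named after its values were seen, had 42.0 and 37.0 CPM in GCE/+ and 29.6 and 28.5 CPM in GCE/GCE samples (log2 fold change -0.44, edgeR adjusted p = 0.103, DESeq2 adjusted p = 0.0227).

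None of the 12 other negative regulators passed by edgeR, and the lowest p values there were those of *Sulf2* and *Sulf1*, which encode enzymes that trim heparan sulphate. *Sulf2* had 594 and 639.7 CPM in GCE/+ and 769 and 789.5 CPM in GCE/GCE samples (log2 fold change 0.34, edgeR adjusted p = 0.201, DESeq2 adjusted p = 0.0256). *Sulf1* had 379 and 405 CPM in GCE/+ and 327 and 309 CPM in GCE/GCE samples (log2 fold change -0.30, edgeR adjusted p = 0.205, DESeq2 adjusted p = 0.0765). *Sulf1* and *Sulf2* thus had opposite signs, as did *Sdc2* and *Sdc4*. The other syndecan genes were near 0, with log2 fold changes of -0.05 for *Sdc1* and 0.05 for *Sdc3*, so *Sdc2* and *Sdc4* are a choice made after the values were seen.

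The 21 genes of signal transduction, from adaptors to ERK, had a median log2 fold change of 0.02 and none passed by edgeR or DESeq2. *Frs2*, the docking protein gene of FGF receptors, had the lowest p value (log2 fold change 0.20, edgeR adjusted p = 0.575). None of the 10 ERK-responsive genes outside the members passed by edgeR or DESeq2, with a median of 0.03. *Etv1*, an ETS gene close to *Etv4* and *Etv5*, had 17.4 and 21.2 CPM in GCE/+ and 26 and 25.1 CPM in GCE/GCE samples (log2 fold change 0.40, edgeR adjusted p = 0.217). *Myc* had a log2 fold change of 0.22 (edgeR adjusted p = 0.472).

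Markers of some cell types differed between the genotypes. In bulk samples a change in the number of cells of a type and a change in RNA per cell cannot be told apart. All 15 cartilage genes tested were higher in both GCE/GCE samples, and 6 passed the edgeR threshold. Their CPM summed to 801 and 1227 in GCE/+ and 1699.6 and 1879 in GCE/GCE samples. GCE/+ replicate 2 was thus above replicate 1, as for all 5 receptor genes and for the summed muscle and surface ectoderm genes. This order held for 16 of the 30 members and for 7774 of the 15645 genes tested. A link between these orders was not tested. *Sox9*, a defining gene of cartilage, had 78.3 and 98.7 CPM in GCE/+ and 130.0 and 144 CPM in GCE/GCE samples. Of 7 tendon genes, edgeR called 3 higher and 1 lower, and DESeq2 called 4 higher and 1 lower. Their sums of 513 to 596 CPM in GCE/+ and 594 to 656 CPM in GCE/GCE samples overlapped. The paper concludes that without Osr1 these sorted cells shift towards cartilage and tendon gene expression, and adds RT-qPCR and chondrogenic culture. The part of cartilage and tendon cells or genes in the *Fgfr2*, *Fgfr3* and *Fgf18* values was not tested.

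Of 11 macrophage genes, 9 were called lower, with sums of 341 and 348 CPM in GCE/+ and 213 and 149.5 CPM in GCE/GCE samples. The 8 endothelial genes summed to 104 to 128 CPM and 86.4 to 102 CPM, and none was called by edgeR. DESeq2 called *Tie1* lower (adjusted p = 0.0852), and 7 of the 8 had a negative fold change. The 8 genes of limb mesenchyme and connective tissue, 7 of them with a negative fold change, summed to 15109 to 16657 CPM in GCE/+ and 12501 to 14318 CPM in GCE/GCE samples. None of these 8 was called by edgeR, while DESeq2 called *Dcn* (adjusted p = 0.00111) and *Col3a1* (adjusted p = 0.0545) lower. Their part in the *Fgf7* and *Fgf10* values was not tested. Muscle genes summed to 197 to 222 CPM in GCE/+ and 225 to 254 CPM in GCE/GCE samples, with none of 13 called by edgeR. DESeq2 called *Ttn* higher (adjusted p = 0.0401), and 10 of the 13 had a positive and 3 a negative fold change. *Myf6* was at 0 in 1 sample and at most 0.049 CPM in the others, while *Myog* had 24.1 to 27.6 CPM. The 10 genes of surface ectoderm summed to 30.2 to 33.2 CPM in GCE/+ and 34.8 to 37.8 CPM in GCE/GCE samples, with none called by edgeR. DESeq2 called *Krt18* higher (adjusted p = 0.0374), and 6 of the 10 had a positive and 4 a negative fold change. Over all 15645 genes tested, 7969 had a positive and 7676 a negative fold change, and genes of a list are not independent. *Cdh1* was at 0.637 to 0.947 CPM. The 6 Schwann cell genes summed to 21.1 to 24.9 and 19.9 to 25.2 CPM. The part of these cell types in the *Fgfr4* and *Fgf8* values was not tested.

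**Figure D5:**
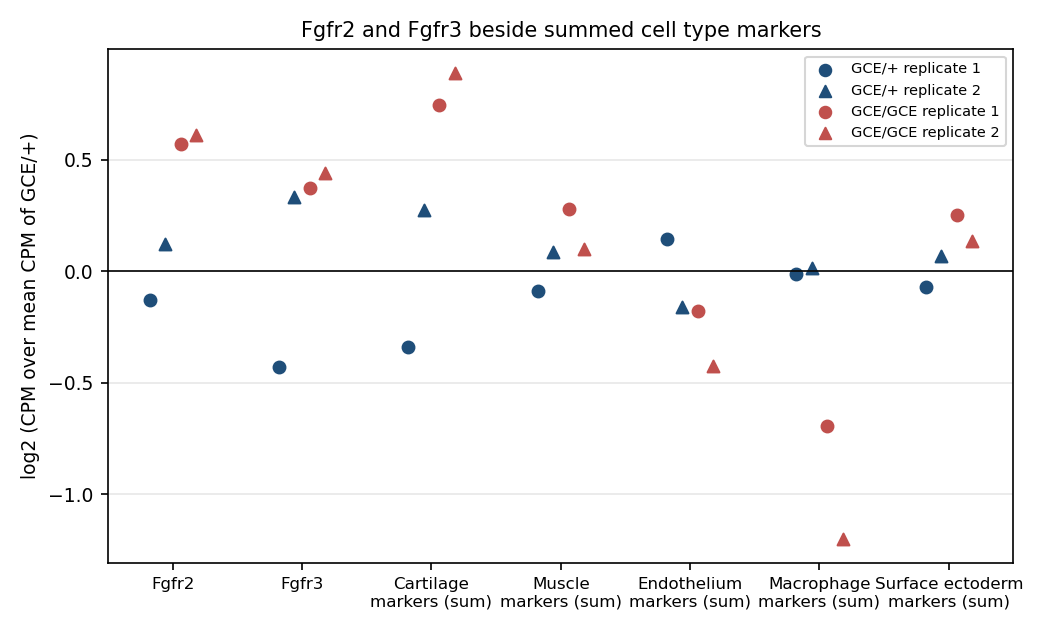
log2 of the CPM of each sample over the mean of the 2 GCE/+ samples, for *Fgfr2*, *Fgfr3* and the summed CPM of 5 marker lists. The cartilage sums, 801 and 1227 CPM in GCE/+ and 1699.6 and 1879 CPM in GCE/GCE samples, have the same order of samples as *Fgfr2* and *Fgfr3*. *Fgfrl1*, not drawn here, had this order too. The macrophage sums have the GCE/GCE samples lowest, and a link between these orders was not tested.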

How the data were processed

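RNA-seq was made from sorted Osr1+ limb cells of 2 Osr1 GCE/+ and 2 Osr1 GCE/GCE samples. The authors mapped paired-end reads of 50 bases to mm9 with TopHat2 and deposited raw counts per gene symbol from HTSeq in intersection-strict mode, without normalisation. Versions were not given in the sources used here. Groups came from the sample titles. Genes passing filterByExpr were normalised by TMM and tested with edgeR 4.0.16 (R 4.3.3), quasi-likelihood with legacy = FALSE, two-sided, Benjamini-Hochberg over 15645 genes, threshold 0.1. The standard error came from the F statistic. DESeq2 1.42.0 was the first alternative. The fits were tested on simulated data. Levels per kb used the exon length of RefSeq-matched transcripts (GENCODE, GRCm38), found for 36 of the 37 genes. Coordinates come from RefSeq on GRCm38.p6, unconverted from mm9. The genes and lists were chosen with earlier results of these data known. Every member was named, with full values for members called by either tool, then by ascending p until 14, and for the 5 highest levels per kb. Of each other list, called genes were named, or the 2 with the lowest p, of which 1 gene is not reported here. Alternatives covered scaling, filters, length offsets, a replicate block, a threshold of 0.05, a legacy fit and leaving out each sample. Hras, Cnmd, Snorc and Adgre1 were matched by synonym.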

Additional observations from a re-analysis of the deposited data

How the results depend on the processing

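*Fgfr2* was called under 12 of 13 alternatives, with log2 fold changes of 0.46 to 0.72 and adjusted p of 9.6e-05 to 0.103, the latter without a filter on low counts. That setting called 0 members by edgeR and 127 genes in all. DESeq2 called 502 genes, a threshold of 0.05 called 130, and edgeR's main fit 285. Leaving out 1 sample in turn, with the lone sample assumed to vary like the other group, gave 199 to 961 genes, 1 to 3 members and 1 to 11 genes of the pathway lists. Without GCE/+ replicate 2 the members called were *Fgfr2*, *Fgfr3* and *Spred1*, and without GCE/GCE replicate 1 748 genes were called. The median log2 fold change of the members ran from 0.026 without GCE/GCE replicate 1, through 0.070 without GCE/+ replicate 1, to 0.13 without GCE/+ replicate 2. Of the pathway lists, DESeq2 called 4 genes and offsets for transcript length called 3, both without and with the replicate block. log2 fold changes rose with transcript length across genes (Spearman's rho 0.251, genes not being independent replicates), and *Fgfr2* kept 0.56 (edgeR adjusted p = 0.0331) with the offset. No source says whether same-numbered samples shared a litter or day. The correlation of their deviations was -0.004 over 11180 genes, which are not independent, and it cannot settle this. With the replicate number as a block, *Fgfr2* had 0.59 (edgeR adjusted p = 0.0469), 1 member and 1 pathway gene passed, and the block changed no other call among the members. Of the marker genes, the block newly called *Dcn* of the connective tissue list (edgeR adjusted p = 0.0343) and *Aif1* of the macrophage list (0.0933). It also newly called the cartilage genes *Col2a1* (edgeR adjusted p = 0.0463), *Col9a3* (0.0325), *Col11a2* (0.0493), *Matn1* (0.0841), *Hapln1* (0.075) and *Comp* (0.0716). Values near 0 turned sign: with upper quartile scaling *Spry2* was at -0.0099, and over the samples left out *Spry2* ran from -0.065 to 0.077, *Spry1* from -0.26 to 0.059, *Fgfr1* from -0.0099 to 0.10 and *Spry4* from -0.26 to 0.026. The causes of these moves were not tested. The legacy fit, chosen after seeing the data, changed no call of a member. Depth limits the members under 0.0576 CPM.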
